A study of Oryza sativa with 12 samples.

Results

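Koshihikari is a japonica rice cultivar with short panicles, and ST-1 is a stock with long panicles. The effect of the Pbl6 segment of ST-1 on the young panicle was estimated over 12 RNA-seq libraries, all those of the series. The 6 libraries with the segment came from NIL-Prl5ST-1+Pbl6ST-1 and NIL-Pbl6ST-1, and the 6 without it from Koshihikari and NIL-Prl5ST-1, with 3 libraries per line. The groups were thus set by genotype alone, and the Prl5 segment, carried by 3 libraries of each group, was a term of the model. NIL-Pbl6ST-1 carries the ST-1 allele of Pbl6, labelled APO1, NIL-Prl5ST-1 carries that of Prl5, and NIL-Prl5ST-1+Pbl6ST-1 carries both. The lines were bred by repeated backcrossing to Koshihikari and selected with SSR markers, and RNA was taken from young panicles of 2 mm. Each near-isogenic line is a single selected line, so the Pbl6 allele cannot be told apart from other ST-1 sequence that the Pbl6 lines may share. The labels do not say whether the libraries of a line came from separate plants, so p-values measure the spread between these libraries. In the test over all 12 libraries, this spread also holds any difference of the Pbl6 effect between panicles with and without the Prl5 segment. The hour at which each line was collected is not given in the sources used here.

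Pbl6 is the rice gene APO1, the counterpart of UNUSUAL FLORAL ORGANS in Arabidopsis. It encodes an F-box protein, the part of a ubiquitin ligase that chooses the proteins to be marked, and it acts in the inflorescence meristem, where it delays the switch from branches to spikelets. Strong alleles give larger panicles and thicker culms. Prl5 encodes GA20ox4, an enzyme on the route to active gibberellins, hormones that drive stem and rachis elongation. The pooled comparison asks which transcripts differ with the Pbl6 segment on average over panicles with and without the Prl5 segment.

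The table held 40722 transcripts of 34126 loci, of which 31643 transcripts of 25551 loci had enough counts to be tested. Total counts per library were between 16041196 and 31760529, so that 3 counts, taken as the floor, were worth 0.0971 to 0.192 cpm (read counts scaled to a common library size). The inflorescence genes OSH15 and a LEAFY-like gene had at least 80.3 and 92.7 cpm in every library, while the 54 photosystem, light-harvesting and Rubisco loci together reached at most 375 cpm. On the first principal component, which held 43.3% of the variance, the 6 libraries with the Pbl6 segment lay between -28.1 and -16.5 and all 6 without it lay above them. Replicate 2 of Koshihikari (23.6) and replicate 2 of NIL-Prl5ST-1 (18.6) stood apart from the other libraries of their lines, which lay at -8.69 and -2.41 and at 50.1 and 53.4. On the second component (20.5% of the variance), replicate 3 of NIL-Prl5ST-1+Pbl6ST-1 lay at 24.4, against -4.24 and -9.77 for the others of its line. Koshihikari replicates 1 and 3 lay at 27.7 and 39.5 there. Replicate 3 of NIL-Prl5ST-1+Pbl6ST-1 was left out only by itself below.

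The Pbl6 transcript itself, Os06t0665400-01 on chromosome 6, was scarce. Its lowest, median and highest levels were 0.89, 1.27 and 1.72 cpm in the 6 libraries with the segment, against 1.07, 1.73 and 2.23 cpm in the 6 without it. The groups overlapped widely, and the log2 fold change was -0.31 (SE 0.203) with an adjusted p of 0.311. Values were tested by edgeR's quasi-likelihood method and adjusted after Benjamini and Hochberg, the test behind every adjusted p below unless another is named. An exact two-sided permutation test within the Prl5 backgrounds gave p = 0.19, where the design allows no p below 0.005. The Prl5 transcript, Os05t0421900-00 on chromosome 5, had 2.69, 3.58 and 4.78 cpm with the Pbl6 segment, against 2.19, 2.73 and 3.0 cpm without it. Its log2 fold change was 0.44 (SE 0.135, adjusted p = 0.0385), and the exact permutation test gave p = 0.02. This call was not stable, since it was lost in 10 of the 12 fits that left out 1 library, where the adjusted p went up to 0.106. It was also lost without both libraries of replicate 2 that stood apart (adjusted p = 0.07).

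Of 25551 loci, each read through its most abundant transcript, 4108 (16.1%) passed an adjusted p below 0.05. At the level of transcripts 5242 of 31643 (16.6%) passed. Of the 4108 loci, 2061 (8.07%) were higher with the Pbl6 segment and 2047 (8.01%) were lower. The changes to lower levels were larger. The median log2 fold change was 0.36 among the higher loci and -0.58 among the lower loci, and of 487 loci (1.91%) past 2-fold, 385 (1.51%) were lower and 102 (0.399%) higher. In 1561 called loci (6.11% of all loci) the 6 libraries with the segment did not overlap the 6 without it. The calls rested most on 6 libraries, Koshihikari replicate 2, NIL-Prl5ST-1 replicates 1 and 3, NIL-Pbl6ST-1 replicate 2 and NIL-Prl5ST-1+Pbl6ST-1 replicates 1 and 2. Without any 1 of these 6 influential libraries between 3009 and 3588 transcripts passed. In these bulk panicles, fewer cells of a type and less RNA per cell cannot be told apart.

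**Figure D1:**
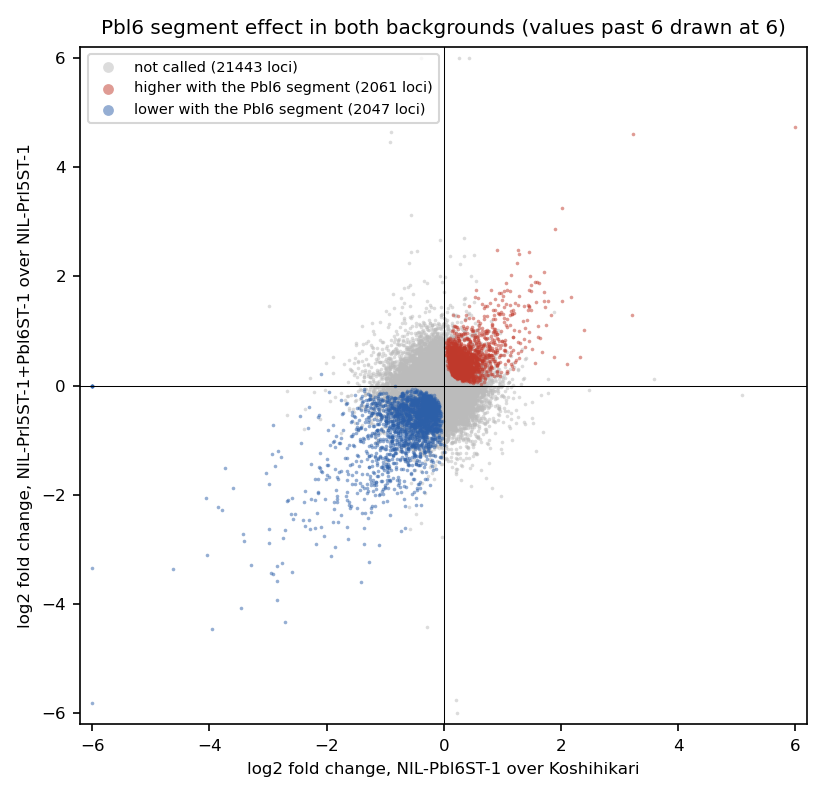
Log2 fold change of each of 25551 loci in NIL-Prl5ST-1+Pbl6ST-1 over NIL-Prl5ST-1 (vertical axis) against that in NIL-Pbl6ST-1 over Koshihikari (horizontal axis), where each axis uses libraries of its own. Red loci (2061) were higher and blue loci (2047) lower in the pooled comparison, and the blue points reach farther from 0.

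The pooled value joins comparisons that share no library, NIL-Prl5ST-1+Pbl6ST-1 with NIL-Prl5ST-1 and NIL-Pbl6ST-1 with Koshihikari. With the Prl5 segment present 6381 loci (25.0%) passed, and in the Koshihikari background 2087 (8.17%). Of the 6381 loci, 62.5% had the same sign of the fold change in the Koshihikari background, and of the 2087 loci, 78.6% had the same sign in the Prl5 background, beside 55.1% of all loci tested. Both comparisons called 831 loci, and 803 of these (313 higher, 490 lower) moved the same way. Over all loci the fold changes correlated at 0.330 (Pearson) and 0.196 (Spearman), a description across loci, which are not independent. Among the 4108 pooled calls, 99.7% shared their sign in both backgrounds, which the pooling itself favours, and 834 passed in neither background alone. The change was the larger in the Prl5 background for 2659 of them (64.7%). These counts moved with single libraries. Without Koshihikari replicate 2 the Koshihikari background alone gave 7326 transcripts, against 2686 (8.49% of transcripts) with all libraries, and without NIL-Prl5ST-1 replicate 1 the Prl5 background gave 3883, against 8021 (25.3%).

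Of 14 clock loci, 6 were lower and 3 higher with the Pbl6 segment (64.3%, beside 16.1% of all loci). The plant clock is a loop in which MYB factors of the morning and genes of the evening repress each other, and in rice it sets flowering time. The clock MYB transcript Os08t0157600-01 had 445, 491 and 516 cpm with the Pbl6 segment, against 194, 211 and 268 cpm without it. It rose by 1.14 on the log2 scale (SE 0.082, adjusted p = 3.26e-07). A transcript similar to LHY, another morning MYB of Arabidopsis, Os04t0583900-01, also rose (8.16, 11.5 and 15.2 cpm, against 4.81, 6.41 and 8.04 cpm, adjusted p = 5.38e-05). In both, every library with the segment lay above every library without it. Transcripts given here under a list are mostly those of its smallest p-values, a choice that favours groups without overlap.

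Evening genes went the other way. GIGANTEA (Os01t0182600-03), which in rice activates a CONSTANS-like flowering gene, had 13.6, 34.3 and 55.9 cpm with the segment, against 161, 188 and 223 cpm without it. Its log2 fold change was -2.70 (SE 0.251, adjusted p = 4.83e-06). Its mean was 15.7 ± 2.48 cpm (SD, n = 3) in NIL-Pbl6ST-1 and 52.4 ± 3.13 cpm (SD, n = 3) in NIL-Prl5ST-1+Pbl6ST-1, against 190 ± 30.8 cpm (SD, n = 3) in Koshihikari and 192 ± 9.10 cpm (SD, n = 3) in NIL-Prl5ST-1. The log2 fold change was thus -1.88 in the Prl5 background and -3.60 in the Koshihikari background, and this difference passed its own test (interaction 1.71, adjusted p = 0.000307).

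An FKF1-like transcript (Os11t0547000-01), in Arabidopsis a blue-light receptor with an F-box that pairs with GIGANTEA, had 2.07, 3.09 and 4.89 cpm with the segment, against 12.8, 15.4 and 21.5 cpm without it (log2 fold change -2.37, SE 0.125, adjusted p = 1.51e-08). An ELF3-like transcript (Os01t0566050-00), in Arabidopsis part of the evening complex, had 3.97, 4.30 and 4.65 cpm, against 7.03, 9.33 and 10.4 cpm (adjusted p = 1.99e-06). Neither showed any overlap between the groups. A PRR73-like transcript, Os03t0284100-01, was lower on average (log2 fold change -0.72, adjusted p = 0.00999), but its groups overlapped. It fell more in the Koshihikari background, a difference that passed in only 5 of the 12 fits leaving out 1 library. It averaged 22.9 ± 3.68 cpm (SD, n = 3) in NIL-Pbl6ST-1 and 48.6 ± 5.75 cpm (SD, n = 3) in NIL-Prl5ST-1+Pbl6ST-1, against 54.9 ± 10.4 cpm (SD, n = 3) in Koshihikari and 55.6 ± 1.19 cpm (SD, n = 3) in NIL-Prl5ST-1.

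Of 27 loci of the two-component response regulator list, 5 were higher and 6 lower (40.7%, beside 16.1% of all loci), with a median log2 fold change of 0.05. The list, found by words in the descriptions, also holds the histidine kinase Os03t0717700-01, which was among the higher loci. That locus and the B-type regulator Os01t0904700-01, which was among the lower loci, are counted again in the cytokinin list below. The count of higher loci was 3 without Koshihikari replicate 2, NIL-Prl5ST-1 replicate 1, NIL-Pbl6ST-1 replicate 2 or NIL-Prl5ST-1+Pbl6ST-1 replicate 2. The members with the smallest p, a pair described as having a receiver domain, fell without overlap. That description does not settle whether they belong to the cytokinin relay or to the clock. Neither was counted among the clock loci above. Os02t0618200-01 had 6.01, 7.50 and 9.93 cpm with the segment, against 17.4, 21.1 and 25.7 cpm without it (adjusted p = 9.07e-08). Os09t0532400-02 had 20.5, 27.2 and 39.8 cpm, against 44.0, 70.7 and 81.9 cpm (adjusted p = 1.21e-06). Among those that rose was an A-type response regulator of the cytokinin relay (Os04t0442300-01), with 16.6, 17.7 and 19.3 cpm against 11.7, 13.8 and 16.2 cpm (log2 fold change 0.37, adjusted p = 0.0142). B-box and CONSTANS-like zinc fingers, many of which relay light and day length, split by member, with 4 of 23 loci lower and 2 higher (26.1% in all) and a median log2 fold change of 0.02. Os01t0202500-01 fell by 1.81 and Os09t0509700-01 fell by 2.02 on the log2 scale, while Os02t0606200-01 rose by 1.11, with 56.7, 76.2 and 103 cpm against 25.8, 36.1 and 52.3 cpm (adjusted p = 0.000225).

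**Figure D2:**
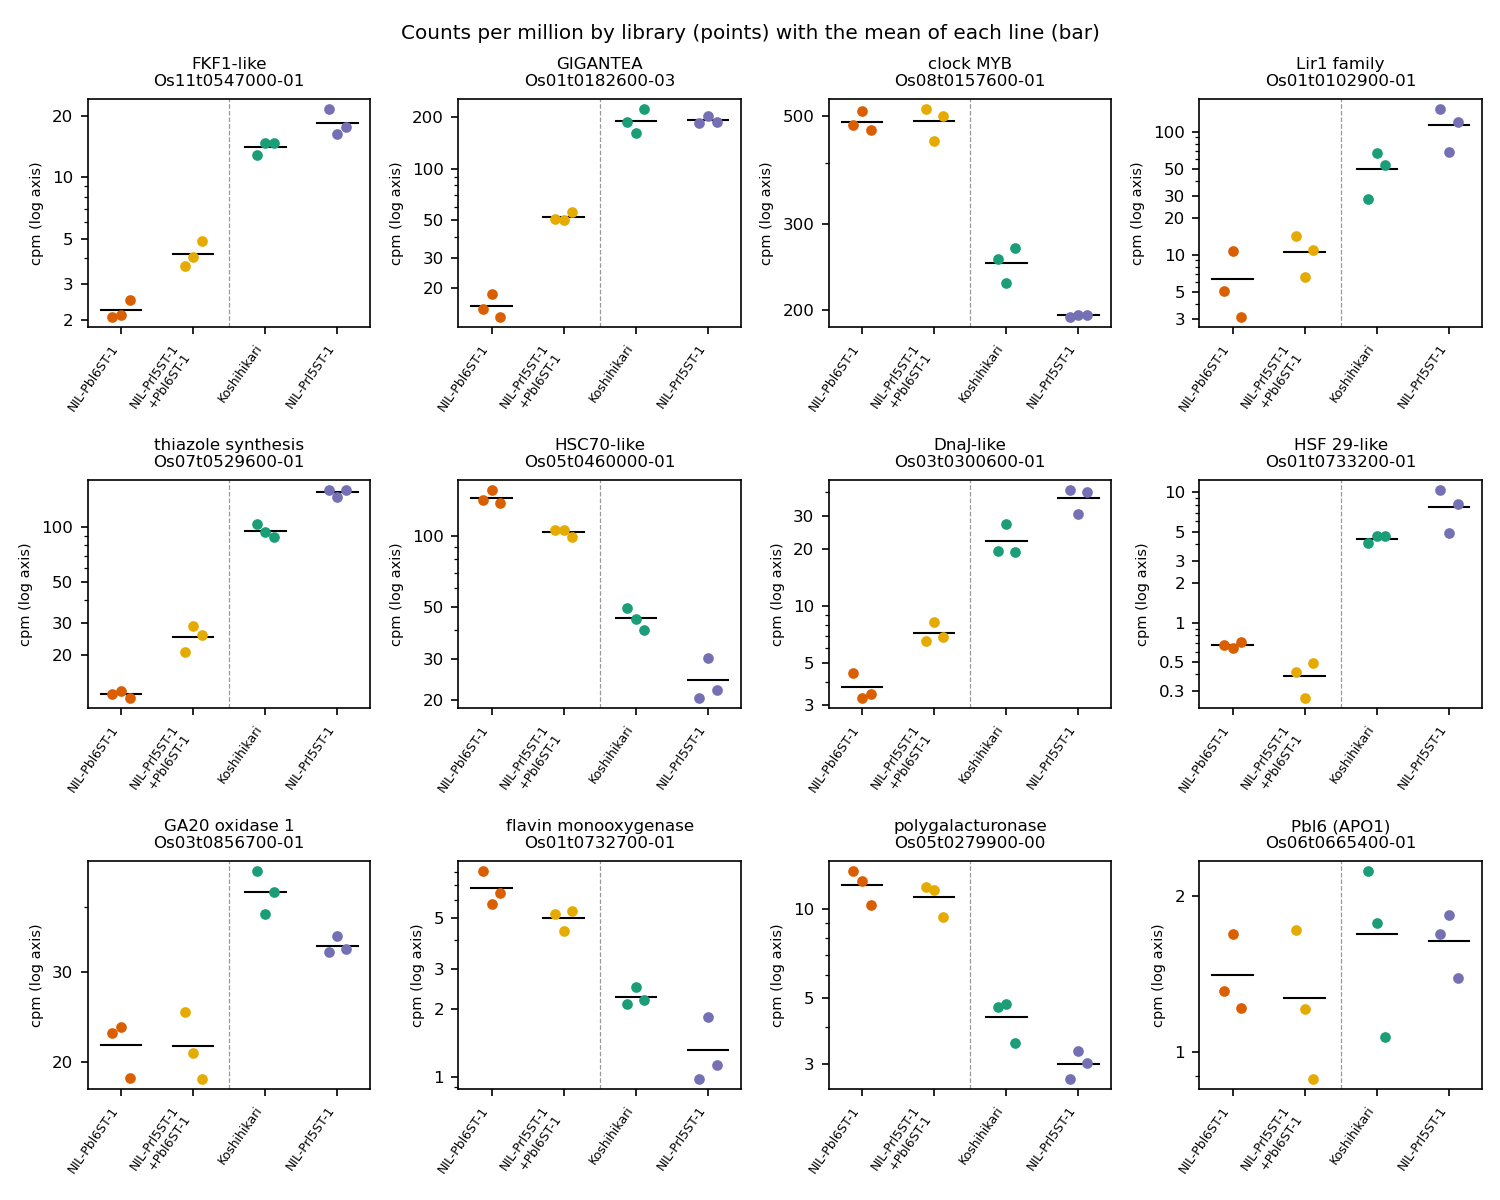
Level in cpm (log axis) of 12 transcripts in each library, with a bar at the mean of each line, for both lines with the Pbl6 segment left of the dashed line and Koshihikari and NIL-Prl5ST-1 right of it. In 11 panels the 6 libraries with the Pbl6 segment are apart from the 6 without it, and in the panel of the Pbl6 transcript they overlap.

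Photosystem and related genes that passed were nearly all lower with the Pbl6 segment. Of 54 photosystem, light-harvesting and Rubisco loci, the genes of the light reactions and of carbon fixation that also mark green leaf tissue, 20 fell, 1 rose and 33 did not pass (38.9% called, beside 16.1% of all loci), with a median log2 fold change of -0.35 beside 0.00 over all loci. Their summed level was 192 to 210 cpm in NIL-Pbl6ST-1 and 213 to 242 cpm in NIL-Prl5ST-1+Pbl6ST-1, against 222 to 312 cpm in Koshihikari and 289 to 375 cpm in NIL-Prl5ST-1. Between libraries with and without the segment, the sums overlapped only for NIL-Prl5ST-1+Pbl6ST-1 and Koshihikari. How far the share of green tissue differed was not tested.

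Among these loci, the PsbQ-family transcript Os07t0105600-01, of the oxygen-evolving complex, had 0.914, 1.06 and 1.61 cpm with the segment, against 2.88, 3.79 and 4.15 cpm without it (adjusted p = 5.32e-06). Another oxygen-evolving subunit, Os07t0544800-01, had 8.26, 10.7 and 11.6 cpm, against 13.5, 20.3 and 30.6 cpm (adjusted p = 7.28e-05). A photosystem I subunit (Os12t0420400-02) and a chlorophyll a/b binding protein of photosystem I (Os07t0577600-01) fell by 1.88 and 1.08 on the log2 scale. The light-regulated chloroplast protein Lir1 (Os01t0102900-01) changed more, with 3.14, 8.68 and 14.1 cpm with the segment, against 28.3, 67.7 and 152 cpm without it (log2 fold change -3.20, SE 0.297, adjusted p = 4.76e-06). Plastid-specific ribosomal proteins (Os09t0279500-01 and Os03t0856500-01) fell by 0.71 and 0.92. In chlorophyll synthesis 4 of 20 loci rose, 1 fell and 15 did not pass (25% called, beside 16.1% of all loci). Geranylgeranyl reductase (Os02t0744900-01), which makes the phytol tail of chlorophyll, had 59.3, 67.2 and 73.7 cpm, against 36.7, 38.9 and 44.1 cpm (log2 fold change 0.76, adjusted p = 7.31e-06).

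The transcript with the smallest p of all encoded a thiazole biosynthetic enzyme, which makes the thiazole ring of thiamine in the chloroplast. Os07t0529600-01 had 11.6, 16.6 and 28.8 cpm with the Pbl6 segment, against 88.4, 126 and 160 cpm without it. The log2 fold change was -2.80 (SE 0.095, adjusted p = 8.36e-11), with -2.98 in the Koshihikari background and -2.63 in the Prl5 background. A thiC-like transcript (Os03t0679700-02), the enzyme of the pyrimidine branch of thiamine, also fell (1.54, 2.75 and 3.41 cpm, against 4.70, 5.65 and 6.83 cpm, adjusted p = 0.000134). Thiamin pyrophosphokinase (Os05t0367400-01), which activates the finished vitamin, had 2.11, 2.44 and 3.30 cpm, against 1.17, 1.69 and 2.19 cpm (log2 fold change 0.67, adjusted p = 0.0182). That last call was lost without NIL-Prl5ST-1+Pbl6ST-1 replicate 1 (adjusted p = 0.0528) and without both libraries of replicate 2 that stood apart (adjusted p = 0.0617). The other 4 of the 7 thiamine loci did not pass (42.9% called, beside 16.1% of all loci).

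Nitrogen genes moved both ways, with 7 of 25 loci lower and 5 higher (48%, beside 16.1% of all loci) and a median log2 fold change of -0.05. Both ferredoxin-nitrite reductase transcripts fell, Os01t0357100-01 by 0.53 and Os02t0765900-00 by 0.59 on the log2 scale (adjusted p = 0.0016 and 0.00133), without overlap of the groups. A nitrate transporter (Os10t0554200-02) fell by 0.49 (adjusted p = 0.001). For the step before nitrite, a scarce nitrate reductase-like transcript (Os08t0468100-01) was higher, at 2.03, 2.65 and 3.34 cpm, against 1.44, 1.79 and 2.27 cpm (log2 fold change 0.60, adjusted p = 0.0144). It passed in neither background alone (adjusted p = 0.101 in the Koshihikari background and 0.0733 in the Prl5 background). Its call was also lost without both libraries of replicate 2 that stood apart (adjusted p = 0.0503). Glutamine synthetase (Os02t0735200-02), which takes up ammonium, rose by 0.39 (119, 140 and 148 cpm, against 80.4, 108 and 125 cpm, adjusted p = 0.00482). Asparagine synthetase (Os03t0291500-01), which stores nitrogen in asparagine, had 2.50, 3.18 and 4.05 cpm with the segment, against 3.49, 12.4 and 19.0 cpm without it, so that the groups touched at their ends (log2 fold change -1.90, adjusted p = 0.000249). Without any 1 of the 6 influential libraries, or without NIL-Pbl6ST-1 replicate 1, 2 loci were higher, without NIL-Pbl6ST-1 replicate 3 there were 3, and leaving out 1 library gave 5 to 7 lower.

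Chaperones of the HSP70, HSP90, HSP100 and chaperonin classes, which fold proteins in every compartment, were higher with the Pbl6 segment wherever they passed. Of 55 loci, 23 rose and 0 fell (41.8%, beside 16.1% of all loci), with a median log2 fold change of 0.22. At an unadjusted P below 0.05, passed by 31.5% of all loci, 30 were higher and 0 lower. DESeq2's Wald test called 28 higher and 0 lower, and limma-voom 23 higher and 0 lower. Leaving out 1 library gave 17 to 26 higher and 0 or 1 lower, and a model term for the replicate number gave 20 higher and 0 lower. An HSC70-like transcript, Os05t0460000-01, had 99.7, 122 and 157 cpm with the segment, against 20.5, 35.2 and 49.7 cpm without it (log2 fold change 1.90, SE 0.104, adjusted p = 1.62e-08). An Hsp70 family transcript, Os01t0840100-01, had 100, 108 and 131 cpm, against 33.7, 44.1 and 48.6 cpm (log2 fold change 1.41, adjusted p = 2.54e-08). Another, Os03t0276500-01, had 51.1, 62.9 and 70.5 cpm, against 18.7, 22.5 and 26.6 cpm (log2 fold change 1.46, adjusted p = 2.83e-07). An HSP82-like transcript, Os08t0500700-01, had 465, 514 and 577 cpm, against 274, 332 and 388 cpm (log2 fold change 0.66, adjusted p = 0.000148). None of these 4 overlapped between the groups. The sum over the 55 loci was higher with the segment only in the Koshihikari background, at 17896 to 18218 cpm in NIL-Pbl6ST-1, against 14105 to 14806 cpm in Koshihikari. In the Prl5 background the sums overlapped, at 16527 to 18282 cpm in NIL-Prl5ST-1+Pbl6ST-1, against 15961 to 18615 cpm in NIL-Prl5ST-1. The median sum there was lower with the segment, at 16969 cpm against 17590 cpm.

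Heat shock factors, the regulators of chaperone genes, moved in opposite directions, with 6 of 19 loci higher and 2 lower (42.1% in all). The 2 that fell changed most. The HSF29-like transcript Os01t0733200-01 had 0.265, 0.567 and 0.705 cpm with the segment, against 4.06, 4.74 and 10.4 cpm without it (log2 fold change -3.48, SE 0.278, adjusted p = 1.08e-06), and the HSF31-like Os02t0527300-01 fell by 2.05. The Spl7-like factor Os04t0568700-00, which limits leaf spotting in rice, rose by 0.84 (adjusted p = 0.000639). DnaJ proteins, the partners of HSP70, were likewise split, with 14 of 97 loci higher and 9 lower, where 8.07% of all loci were higher and 8.01% lower. Os03t0300600-01 had 3.29, 5.53 and 8.28 cpm, against 19.4, 29.1 and 41.0 cpm (log2 fold change -2.44, adjusted p = 1.12e-08), while Os03t0787300-01 had 239, 247 and 279 cpm, against 129, 152 and 170 cpm (log2 fold change 0.75, adjusted p = 1.04e-05). The count of higher DnaJ loci was 4 to 9 without any 1 of the 6 influential libraries. Small heat shock proteins gave no common direction, with 2 of 26 loci higher and 3 lower (19.2%), and 0 to 3 were lower when 1 library was left out. A mitochondrial member, Os06t0219500-00, rose by 0.91 (adjusted p = 3e-05), and the call of a class II member that fell, Os01t0184100-01, was lost without any 1 of the NIL-Pbl6ST-1 libraries.

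Of 23 gibberellin loci, 7 were higher and 1 lower (34.8%, beside 16.1% of all loci), and the 1 that fell was GA20ox1 (Os03t0856700-01), another gibberellin 20-oxidase and a paralog of Prl5. It had 18.6, 21.8 and 25.0 cpm with the segment, against 32.7, 36.9 and 46.9 cpm without it (log2 fold change -0.82, SE 0.093, adjusted p = 3.32e-05), with no overlap. A GA2ox5-like transcript (Os01t0209700-01), of the family that inactivates gibberellins, rose by 0.90 (4.55, 6.26 and 8.14 cpm, against 2.07, 3.42 and 3.88 cpm, adjusted p = 0.00054). A transcription activator described as acting in gibberellin-induced stem elongation (Os02t0776900-01) rose by 0.69 (adjusted p = 0.000379). The list held 3 lower loci without Koshihikari replicate 1, and 4 higher loci without Koshihikari replicate 2, NIL-Prl5ST-1 replicate 3, NIL-Pbl6ST-1 replicate 2 or NIL-Prl5ST-1+Pbl6ST-1 replicate 2.

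Auxin loci were higher in 18 and lower in 6 of 114 cases, a share of 21.1% beside 16.1% of all loci, and leaving out 1 library gave 12 to 22 higher and 4 to 8 lower. A flavin monooxygenase of auxin synthesis (Os01t0732700-01) had 4.42, 5.60 and 8.07 cpm with the segment, against 0.983, 1.97 and 2.49 cpm without it (log2 fold change 1.73, SE 0.151, adjusted p = 2.53e-06). The IAA18-like transcript Os02t0228900-01, of a family that represses auxin response, rose by 0.44. A dormancy and auxin associated transcript (Os09t0437500-01) had 5.25, 7.77 and 10.5 cpm, against 12.7, 36.4 and 70.6 cpm (log2 fold change -2.36, adjusted p = 8.58e-06).

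Among 28 cytokinin loci, hormones that feed the meristem, 7 were higher and 3 lower (35.7%), with a median log2 fold change of 0.24, and 4 were higher and 2 lower without both libraries of replicate 2 that stood apart. A histidine kinase receptor (Os03t0717700-01) had 25.0, 31.0 and 35.7 cpm, against 14.7, 19.0 and 26.9 cpm (log2 fold change 0.61, adjusted p = 0.00803). A B-type response regulator (Os01t0904700-01), a transcription factor at the end of the cytokinin relay, had 6.31, 6.75 and 7.29 cpm, against 7.67, 9.43 and 11.2 cpm (log2 fold change -0.48, adjusted p = 0.00237). A cis-zeatin glucosyltransferase-like transcript (Os04t0565200-01), which would store cytokinin as a conjugate, was scarce, at 0.840, 1.26 and 1.61 cpm, against 0.384, 0.461 and 0.961 cpm (adjusted p = 0.0101), and its call was lost without both libraries of replicate 2 that stood apart (adjusted p = 0.052).

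Lists of cell wall genes had shares of calls near that of all loci (16.1%). Pectin and xyloglucan enzymes, which loosen and remodel the wall matrix, were higher in 14 and lower in 5 of 88 loci (21.6%), and without any 1 of the 6 influential libraries 7 to 9 were higher. A polygalacturonase, which cuts pectin, Os05t0279900-00, had 9.39, 11.7 and 13.4 cpm with the segment, against 2.68, 3.43 and 4.79 cpm without it (log2 fold change 1.66, SE 0.119, adjusted p = 3.26e-07). The neighbouring locus Os05t0279850-00, a hypothetical protein, changed alike (log2 fold change 1.61), and reads shared by the neighbours could not be separated. A PG2-like polygalacturonase (Os01t0636500-01) had 9.35, 11.3 and 12.7 cpm, against 2.39, 4.12 and 5.37 cpm (adjusted p = 1.64e-05), while a pectin lyase fold transcript (Os05t0542900-01) fell by 0.95.

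Expansins, which let the wall yield without cutting it, were higher in 5 and lower in 0 of 22 loci (22.7%), with 8 higher and 1 lower at an unadjusted P below 0.05. DESeq2's Wald test called 5 higher and 1 lower, limma-voom called 5 higher and 0 lower, and 3 were higher without Koshihikari replicate 2 or 3, NIL-Prl5ST-1 replicate 3, NIL-Pbl6ST-1 replicate 2 or NIL-Prl5ST-1+Pbl6ST-1 replicate 1 or 2. The Expansin-B7-like transcript Os03t0102700-01 had 26.9, 30.5 and 37.7 cpm, against 15.2, 21.4 and 26.8 cpm, and the groups just failed to touch (log2 fold change 0.52, adjusted p = 0.0113). EXPA2 (Os01t0823100-01) and EXPA4 (Os05t0477600-01) rose by 0.74 and 0.40, with overlap. Of 35 cellulose and glucan synthase loci 6 were higher and 1 lower (20%). Without any 1 of the 6 influential libraries 3 were higher, and without NIL-Prl5ST-1+Pbl6ST-1 replicate 3 there were 3 lower. The list's median log2 fold change was 0.41 in the Prl5 background and -0.10 in the Koshihikari background. A mixed-linked glucan synthase 2-like transcript (Os07t0553000-00), of the enzymes that make the mixed glucan of grass walls, was scarce but separate, at 1.09, 1.26 and 1.63 cpm, against 0.119, 0.394 and 0.485 cpm (log2 fold change 1.86, adjusted p = 0.000164).

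**Figure D3:**
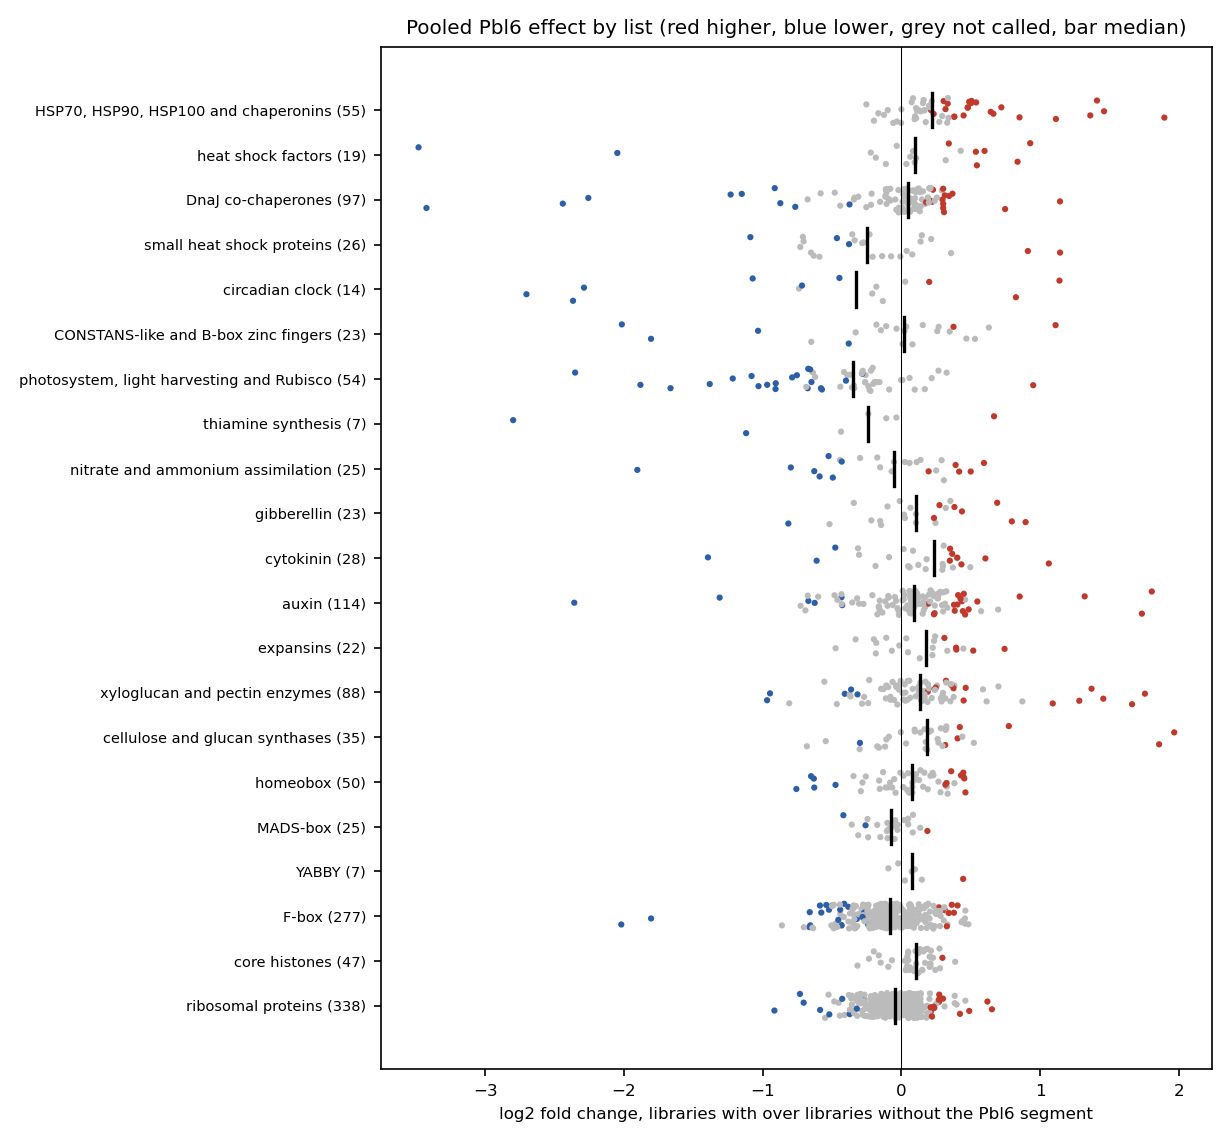
Log2 fold change (horizontal axis, libraries with over libraries without the Pbl6 segment) of each locus in 21 lists, with the number of loci in brackets and a bar at the median. Red loci passed as higher and blue loci as lower, and the photosystem and chaperone lists lean to opposite sides of 0 with medians of -0.35 and 0.22.

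Genes of meristem and organ identity changed little in size. OSH15 (Os07t0129700-01), a KNOX homeobox gene of rice meristems and internodes, had 137, 158 and 169 cpm with the segment, against 80.3, 122 and 131 cpm without it (log2 fold change 0.46, SE 0.087, adjusted p = 0.00255). A pair of transcripts similar to the HD-Zip gene ATHB-14, in Arabidopsis a regulator of the upper side of organs, rose by 0.45 (Os12t0612700-01, adjusted p = 0.000607) and 0.43 (Os03t0640800-01, adjusted p = 0.0019). A YABBY transcript (Os02t0643200-01) had 74.4, 81.9 and 88.1 cpm, against 52.4, 60.2 and 65.8 cpm (adjusted p = 0.000302). The LEAFY-like transcript Os04t0598300-00, whose product in rice acts together with APO1 in the inflorescence, had 140, 155 and 174 cpm, against 92.7, 125 and 138 cpm (log2 fold change 0.36, adjusted p = 0.00875). In all 5 the groups were separate, though by a small margin for OSH15 and the LEAFY-like transcript. The homeobox list as a whole had 8 higher and 5 lower of 50 loci (26%, beside 16.1% of all loci) and a median log2 fold change of 0.08. A Revoluta-like HD-Zip transcript (Os03t0769800-01) was among those that fell, with 15, 17.6 and 18.6 cpm against 18.8, 23.2 and 32.6 cpm (log2 fold change -0.47, adjusted p = 0.015). Without Koshihikari replicate 2, NIL-Prl5ST-1 replicate 1 or 3, or NIL-Prl5ST-1+Pbl6ST-1 replicate 1 or 2 the list had 2 lower loci, without NIL-Pbl6ST-1 replicate 1 or 3 it had 3, and without NIL-Prl5ST-1+Pbl6ST-1 replicate 1 or 2 it had 5 higher.

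MADS-box genes, which give floral organs their identity, were called in 1 of 25 cases as higher and in 2 as lower (12%, beside 16.1% of all loci). The MADS15-like transcript Os07t0108900-01 had 231, 276 and 294 cpm with the segment, against 225, 231 and 258 cpm without it, and its call (adjusted p = 0.0467) was lost in 11 of the 12 fits that left out 1 library. The MADS56-like Os10t0536100-01 (log2 fold change -0.26, adjusted p = 0.0345) lost its call in 9 of them. Of 277 F-box loci, the family of Pbl6, 21 were lower and 7 higher, 10.1% in all (14 to 29 lower and 4 to 8 higher when 1 library was left out), and the cyclin-like F-box transcript Os03t0116700-01 fell by 1.81 (3.38, 4.67 and 6.62 cpm, against 12.6, 16.3 and 20.1 cpm, adjusted p = 1.8e-07). Genes of dividing cells differed by list. DNA replication loci were higher in 9 and lower in 3 of 44 cases (27.3%, median log2 fold change 0.20), cyclins and CDKs in 10 and 3 of 61 (21.3%, median 0.03), and kinesins and tubulins in 8 and 4 of 63 (19%, median 0.15). These counts moved with single libraries, and without any 1 of the 6 influential libraries 3 to 5 replication loci, 2 to 5 cyclins and CDKs and 4 or 5 kinesins and tubulins were higher. Core histones gave 1 call among 47 loci (2.13%), a histone H2A transcript (Os03t0162200-01) whose call was lost in 9 of the 12 fits, while 0 to 4 histone loci were higher when 1 library was left out. The histone median was 0.39 in the Koshihikari background and -0.12 in the Prl5 background. Likewise the 338 ribosomal protein loci had medians of 0.16 and -0.26 in these backgrounds, and 7.69% of them (14 higher, 12 lower) passed in the pooled comparison. Leaving out 1 library gave 4 to 18 higher and 3 to 28 lower ribosomal protein loci, with 8 higher and 3 lower without Koshihikari replicate 2.

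Some of the largest changes lay outside these lists. A transcript with an SNF2 domain, the motor of chromatin remodelling enzymes, Os02t0650800-00, had 2.37, 4.47 and 7.86 cpm with the segment, against 0.109, 0.275 and 0.477 cpm without it (log2 fold change 3.94, SE 0.316, adjusted p = 1.11e-06). Levels without the segment were near the floor, so the fitted size depends on the prior count. A homeodomain-like transcript, Os06t0728700-01 on chromosome 6, was far better measured, at 57.2, 59.0 and 61.7 cpm, against 18, 21.7 and 27.0 cpm (log2 fold change 1.45, SE 0.078, adjusted p = 1.51e-08). A Dof3-like zinc finger (Os07t0685000-02) had 34.7, 40.9 and 45.0 cpm, against 14.2, 17.2 and 20.0 cpm (log2 fold change 1.23, adjusted p = 2.54e-08). An ethylene-responsive coactivator-like transcript (Os06t0592500-01) rose by 1.34 and a haem-binding SOUL transcript (Os01t0850900-01) rose by 2.54.

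Among the lowered transcripts named by size or p, Os01t0822800-01 is described as similar to a RING-H2 finger protein. Os10t0445400-01 and Os09t0554200-01 are described only by a RING/FYVE/PHD-type zinc finger domain, which does not settle whether they are RING proteins. Loci with such descriptions were not counted as a list, so their share of calls is not given. Os10t0445400-01 had 1.28, 1.87 and 2.87 cpm with the segment, against 9.09, 14.1 and 20.4 cpm without it (log2 fold change -2.93, SE 0.131, adjusted p = 3.64e-09). Os09t0554200-01 had 2.05, 2.95 and 4.10 cpm, against 9.35, 23.7 and 43.0 cpm (adjusted p = 1.09e-06). The RING-H2 transcript Os01t0822800-01 had 0, 0.205 and 0.346 cpm, against 1.75, 2.41 and 3.61 cpm, which is a few counts per library in the lower group. Equally scarce with the segment were Os06t0534900-00 (0.0641, 0.149 and 0.378 cpm, against 0.830, 2.60 and 8.25 cpm) and Os03t0265900-01 (0, 0.298 and 0.312 cpm, against 0.874, 3.08 and 7.32 cpm), both of unknown function. Their fitted folds are no bounds. Myo-inositol oxygenase (Os06t0561000-01), which feeds inositol into wall sugar synthesis, had 1.28, 2.16 and 4.50 cpm, against 13.0, 19.7 and 26.9 cpm (log2 fold change -2.93, SE 0.275, adjusted p = 5.15e-06). The neighbouring loci Os04t0679400-01 (log2 fold change -2.25) and Os04t0679500-00 (log2 fold change -2.17) fell together and may share reads.

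A cluster of early nodulin loci on chromosome 6, of the ENOD93 family, was lower with the segment. Of 8 early nodulin loci 7 fell and 0 rose (87.5% called, beside 16.1% of all loci), with a median log2 fold change of -1.46. On the same counts, DESeq2's Wald test, limma-voom and an unadjusted P below 0.05 each gave 7 lower and 0 higher. Leaving out 1 library gave 6 or 7 lower, and leaving out both libraries of replicate 2 that stood apart gave 6. Os06t0142200-01 had 19.9, 28.4 and 36.5 cpm, against 49.8, 81.9 and 151 cpm (log2 fold change -1.67, adjusted p = 1.73e-05). Os06t0141600-01 had 4.61, 6.46 and 7.75 cpm, against 10.2, 17.5 and 31.8 cpm (log2 fold change -1.58, adjusted p = 0.000191). The 7 loci lie close together by their numbers and bear like descriptions, so reads may be shared between them. The list was picked after its values were seen.

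**Figure D4:**
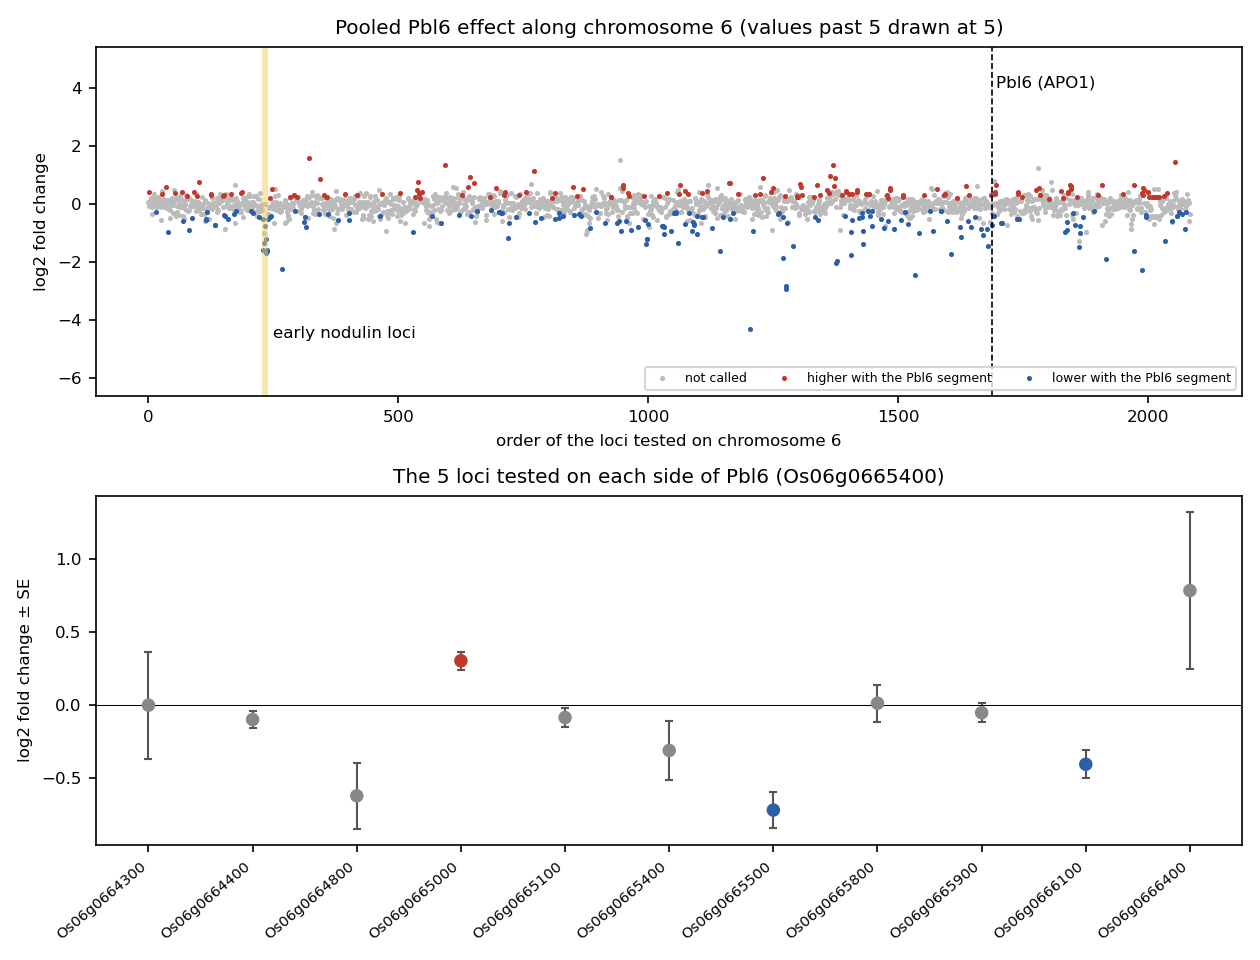
Upper panel, log2 fold change (vertical axis) of the 2085 loci tested on chromosome 6 in the order of their locus numbers, with the position of Pbl6 (dashed line) and of the early nodulin loci (band). Lower panel, log2 fold change with its standard error for Pbl6 and the 5 tested loci on each side, where 1 neighbour was higher (red) and 2 were lower (blue).

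Called loci were spread over the genome. The share of loci called was 16.1% on chromosome 6 (335 of 2085), within the range of 13.9% on chromosome 11 to 17.9% on chromosome 5, and loci past 2-fold made up 1.87% on chromosome 6. Of the 10 loci tested next to Pbl6, 3 passed. A peptidase M20 transcript directly beside it (Os06t0665500-01) had 5.67, 5.96 and 7.75 cpm with the segment, against 8.35, 10.2 and 13.0 cpm without it (log2 fold change -0.72, SE 0.123, adjusted p = 0.0013). Os06t0666100-01 fell by 0.40 (adjusted p = 0.0113) and Os06t0665000-02 rose by 0.30 (adjusted p = 0.00432), both of unknown function. Whether reads of ST-1 alleles map less well than those of Koshihikari was not tested.

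The additive model gives 1 size of the Pbl6 effect for both backgrounds. The difference between backgrounds passed an adjusted p below 0.05 in 1010 loci (3.95%), of which 103 were also pooled calls. This count was far from stable, and leaving out 1 library gave between 7 and 7579 transcripts in place of 1243 (3.93%). The lowest count came without NIL-Pbl6ST-1 replicate 1 and the highest without Koshihikari replicate 2.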

How the data were processed

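RNA was extracted from 2-mm young panicles of 4 lines, with 3 libraries per line. Per the labels, bcl2fastq, Bowtie and the build IRGSP-1.0 were used, and how the reads were counted is not given in the sources used here. The deposited table holds unnormalized read counts for transcripts with Rice Annotation Project identifiers, each with a short description. The study normalized its data with edgeR and took a P of 0.05 as minimum.

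Here counts were scaled by TMM and tested with edgeR 4.0.16 in R 4.3.3 (glmQLFit, glmQLFTest, two-sided, a term for each segment). filterByExpr kept transcripts with a count of 10 or more in about 3 libraries and a total of 15. Benjamini-Hochberg adjustment covered 31643 transcripts, and fold changes used a prior count of 0.125. The single-gene permutation tests used log2(cpm + 0.5) over 400 arrangements. Total counts were between 16041196 and 31760529. Strand use is not given, so overlapping, antisense and near-identical genes may share reads. The fit was tested on simulated data.

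Transcripts were named by rule, starting with Pbl6 and Prl5. Then came the 12 loci that rose and 12 that fell most among adjusted p below 0.05, a mean count of 50 and no overlap. Added to these were the 10 smallest p-values, up to 4 called loci per list by p, and 5 loci on each side of Pbl6. Other genes the study names appear only where these rules or a later choice reached them. Lists were found by words in the descriptions, 1 transcript per locus. The members and lists were chosen with earlier results of these data known, and some lists were corrected after their values were seen. Os04t0583900-01, Os03t0284100-01, Os04t0598300-00, Os08t0468100-01, Os02t0735200-02, Os03t0769800-01, Os04t0442300-01 and the early nodulin list were chosen after their values were seen. Alternatives were DESeq2 1.42.0, limma-voom 3.58.1, other filters, models and thresholds, and each library left out. RefSeq coordinates of another build were not used, and by these names OSH1, OSH43, GA20ox3, GN1a, WFP, FZP, DEP1, CSLF2 and Os05g0422200 were not analysed here.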

Additional observations from a re-analysis of the deposited data

Results flagged for a closer look

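For 6 named transcripts the effect of the Pbl6 segment differed between the backgrounds by edgeR's interaction test, with Benjamini-Hochberg adjustment. Each difference is the log2 fold change in the Prl5 background minus that in the Koshihikari background. For GIGANTEA (Os01t0182600-03) it was 1.71 (adjusted p = 0.000307), it lay between 1.58 and 1.85 when 1 library was left out, and it passed in 12 of those 12 fits. The other 5 passed in 5 or fewer of them. The PRR73-like Os03t0284100-01 had a difference of 1.06 (adjusted p = 0.0309, 0.0011 to 0.108 when 1 library was left out), with log2 fold changes of -0.20 in the Prl5 background and -1.26 in the Koshihikari background. Myo-inositol oxygenase (Os06t0561000-01) had a difference of 1.62 (adjusted p = 0.0413, 0.0101 to 0.124), with -2.23 and -3.85 in the same order.

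The cellulose synthase family transcript Os08t0160500-01 had a difference of 0.83 (adjusted p = 0.0469, 0.00683 to 0.126), and its mean was 26.1 ± 3.35 cpm in NIL-Prl5ST-1+Pbl6ST-1 and 21.8 ± 2.22 cpm in NIL-Pbl6ST-1, against 11.5 ± 2.36 cpm in NIL-Prl5ST-1 and 16.9 ± 3.22 cpm in Koshihikari (SD, n = 3 each). Expansin-B7-like Os03t0102700-01 had a difference of -0.69 (adjusted p = 0.0424, 0.0067 to 0.125), with 28.8 ± 2.68 cpm and 32.9 ± 4.25 cpm in the Pbl6 lines, against 25.5 ± 2.10 cpm and 18 ± 2.49 cpm in the same order. The lipid transfer protein transcript Os07t0287400-01 had a difference of -0.64 (adjusted p = 0.0324, 0.00272 to 0.113), with 102 ± 9.94 cpm and 126 ± 8.77 cpm in the Pbl6 lines, against 73.6 ± 2.33 cpm and 58.5 ± 2.39 cpm.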

How the results depend on the processing

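The 91 transcripts named in the text were followed through all alternatives but the changed thresholds. Where tested, none changed direction, and between 0 and 11 lost their call in a given alternative. With at least 10 counts in every library 81 of them were tested, and without chromosomes 5 and 6 there were 72. Losses at the 1.5-fold threshold were not counted for them, and every named call below 1.5-fold is lost there. The count of 5242 called transcripts became 5240 with DESeq2's size factors, 6159 with DESeq2's Wald test, 5302 with limma-voom, 4984 with no filter, 4818 with at least 10 counts in every library, 4532 with no Prl5 term, 7316 for the mean of the simple effects, 3955 for counts summed to loci and 4332 without chromosomes 5 and 6. It moved to 10152 at an unadjusted P below 0.05 and to 1676 at 1.5-fold or more, where 23.7% were higher in place of 49.6%. Leaving out 1 library gave 3009 to 5743 and kept 56.9% to 92.6% of the calls, with 3328 without Koshihikari replicate 2, 3262 and 3279 without NIL-Prl5ST-1 replicates 1 and 3, and 3299 and 3009 without NIL-Prl5ST-1+Pbl6ST-1 replicates 1 and 2. Leaving out replicate 2 of Koshihikari and of NIL-Prl5ST-1 together gave 3787. The Koshihikari background alone gave 2686 (1067 to 7326 when 1 library was left out), the Prl5 background alone 8021 (3883 to 11158) and the difference between backgrounds 1243 (7 to 7579). The log2 difference of Pbl6 in the exact test lay between -0.32 and -0.16 and that of Prl5 between 0.28 and 0.42 when 1 library was left out. Those left-out fits beside the pooled count were added after seeing the data. Libraries of different lines share a replicate number, and whether they shared anything else is not given in the sources used here. Within each background, the deviations of same-numbered libraries correlated between -0.253 and 0.149. Koshihikari was not set against NIL-Prl5ST-1 in this way, and whether libraries shared a batch was not tested. With the replicate number as a block 4245 transcripts passed, 4157 of them calls without it. The cause of these shifts was not tested. Transcripts near 3 counts are limited by depth. Pbl6 itself, at 0.89 to 2.23 cpm, was scarce but lay above that floor of 0.0971 to 0.192 cpm.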
